A study of Arabidopsis thaliana with 2 samples.

Results

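Beta-tubulin genes were compared between young rosette leaves of the Arabidopsis thaliana line BOUNTIFUL and of Ws-0, the wild-type accession that is its genetic background. The genes were all those whose symbol is TUB followed by a digit and that had a probe set, the group of short probes that reads 1 transcript, assigned to exactly 1 gene. This gave 5 genes, TUB1, TUB5, TUB6, TUB7 and TUB9, of 13356 genes with such a probe set. The gene table lists 9 beta-tubulin genes, and no probe set is named here for TUB2, TUB3, TUB4 and TUB8, which were not analysed here. BOUNTIFUL is labelled as a gain-of-function mutant with an activation tag, an insert of the I/dSpm transposon type, at the locus BOU in Ws-0. The other group was unmutated Ws-0. RNA of both came from a pool of the 4 youngest rosette leaves at developmental stage 6.50, from glasshouse plants grown in compost at 23 °C under days of 16 h. Each group was read on 1 Affymetrix array, so there was no replicate, no difference could be tested, and the precision of each value is limited by the number of arrays.

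Microtubules are hollow tubes built from dimers of an alpha-tubulin and a beta-tubulin protein. In plant cells they lie under the plasma membrane, where they guide the deposition of cellulose and so the direction of growth, and in dividing cells they form the preprophase band, the spindle and the phragmoplast that builds the new wall. Beta-tubulin is the subunit whose bound GTP is hydrolysed as a microtubule grows, and Arabidopsis encodes it in a family of closely similar genes.

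All 5 beta-tubulin genes had a higher signal in BOUNTIFUL than in Ws-0. The difference was large for TUB1 and TUB7 and smaller, and nearly equal, for TUB5, TUB6 and TUB9. Signals are linear brightness values that the authors obtained from MAS5, and log2 ratios are BOUNTIFUL minus Ws-0 of log2(signal + 7.77 units), which understates the difference of low signals. Of the 5 genes, 2 were at least 2-fold higher in BOUNTIFUL, a log2 ratio of 1 or more, and none was at least 2-fold lower. Among all 22746 Arabidopsis probe sets, 4.17% reached a 2-fold higher value in BOUNTIFUL and 3.51% a 2-fold lower one. The family was selected on its measured signals and log2 ratios on these same arrays and its genes by symbol, so the counts describe them and support nothing further. In RNA from whole leaves, more cells that express a gene and more of its RNA per cell cannot be told apart.

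TUB1 (AT1G75780), a beta-tubulin gene known in wild-type Arabidopsis for its expression in roots and for its lowering by light in seedlings, had a signal of 142 units in BOUNTIFUL and 31.5 units in Ws-0. The signal ratio was 4.51, and the log2 ratio with the pseudocount was 1.93. Of all probe sets, 154 (0.677%) had a log2 ratio at least as high. Control probe sets for Bacillus subtilis genes, which no leaf RNA should bind, reached 21.9 units in BOUNTIFUL and 16.7 units in Ws-0, so the TUB1 signal lay above this background on both arrays.

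TUB7 (AT2G29550) had 308 units in BOUNTIFUL and 91.6 units in Ws-0, a signal ratio of 3.36 and a log2 ratio of 1.67. A log2 ratio at least as high was found for 243 probe sets (1.07%). TUB1 and TUB7 differed from each other by 0.26 in log2 ratio, and this difference depended on the pseudocount. With no pseudocount the log2 ratios were 2.17 for TUB1 and 1.75 for TUB7. With a larger one of 24.8 units they were 1.57 and 1.52. For comparison, the log2 ratios of a pair of probe sets of 1 gene differed by a median of 0.21, over 33 genes with both probe sets at or above the median mean signal. This gap is a difference between probe sets within the same arrays, not a spread between plants.

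The other 3 genes differed by less than 2-fold. TUB9 (AT4G20890) had 969 units in BOUNTIFUL and 550 units in Ws-0, a log2 ratio of 0.81. TUB6 (AT5G12250) had 451 units in BOUNTIFUL and 252 units in Ws-0, a log2 ratio of 0.82. TUB5 (AT1G20010) had 532 units in BOUNTIFUL and 306 units in Ws-0, a log2 ratio of 0.78. The signal ratios of these genes lay between 1.73 and 1.78, and no pair of them differed by more than 0.04 in log2 ratio. Between 6.42% and 7.05% of all probe sets had a log2 ratio at least as high as theirs.

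**Figure D1:**
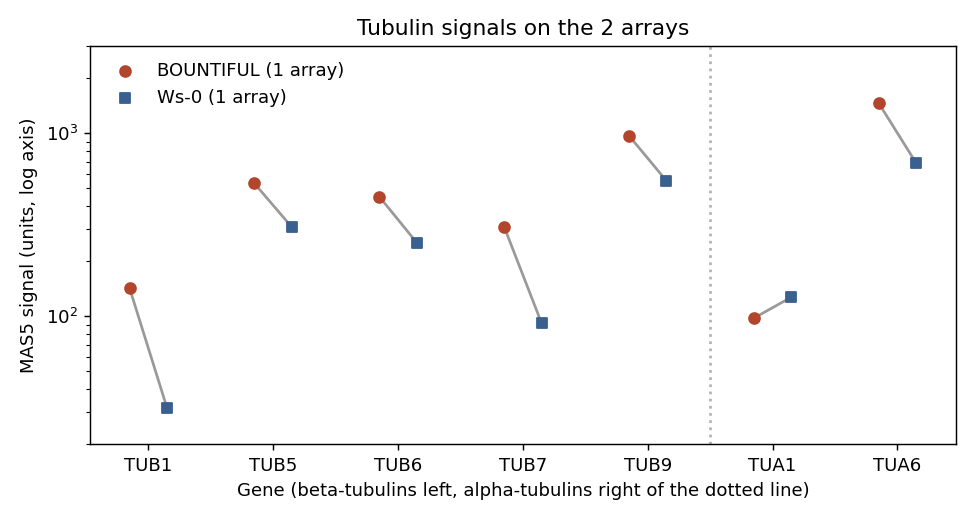
MAS5 signal in units (log axis) of the 5 beta-tubulin genes and the 2 alpha-tubulin genes with a named probe set, on the BOUNTIFUL array (circles, left of each pair) and the Ws-0 array (squares, right), joined by a line for each gene. All 5 beta-tubulin lines and that of TUA6 slope down to Ws-0, most steeply for TUB1 (142 against 31.5 units), while TUA1 had 97.7 against 127 units. Each point is 1 array and has no error bar. Levels of different probe sets are not comparable with each other.

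The family thus held a pair of genes with large and a trio with moderate log2 ratios. TUB1 exceeded TUB5 by 1.15, TUB6 by 1.12 and TUB9 by 1.12 in log2 ratio. TUB7 exceeded TUB9 by 0.86. The median of the 5 genes was 0.82, against a median of -0.02 over all Arabidopsis probe sets. Log2 ratios above 0 were found for 5 of 5 beta-tubulin genes, against 47.4% of all probe sets. All 5 genes also lay among the 11373 probe sets at or above the median mean signal, of which 4.63% were at least 2-fold higher. Probe sets within 1.5-fold of each gene's own mean signal had median log2 ratios between -0.08, near TUB1, and 0.07, near TUB9.

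**Figure D2:**
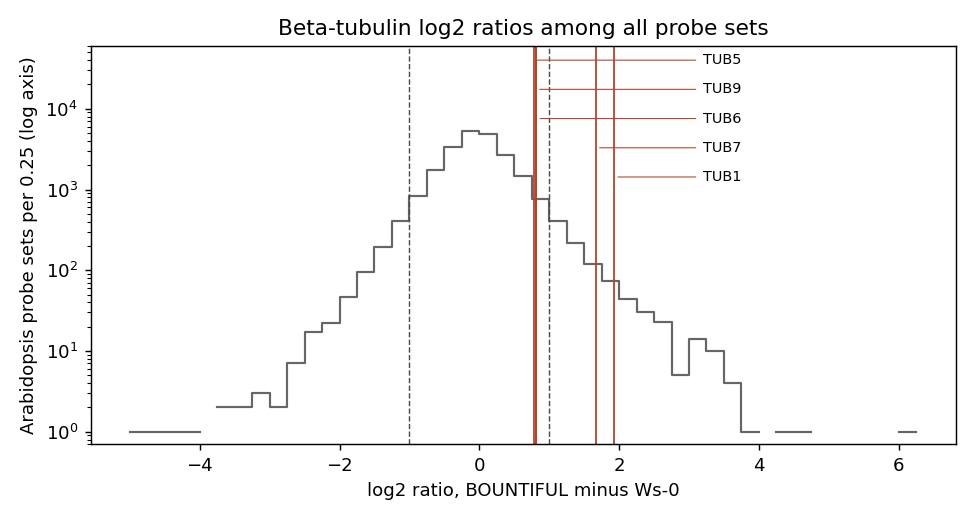
Number of Arabidopsis probe sets (log axis) per step of 0.25 in log2 ratio, BOUNTIFUL minus Ws-0, with the 5 beta-tubulin genes as vertical red lines and the 2-fold limits dashed. TUB5, TUB9 and TUB6 stand close together between 0.78 and 0.82, just inside the 2-fold limit, and TUB7 (1.67) and TUB1 (1.93) stand beyond it. Probe sets with still higher log2 ratios are present on the right.

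The scaling of the arrays bears on the size of these values. Hybridisation spikes, foreign transcripts put into the mix before hybridisation, had log2 ratios below 0 for all 9 newer and all 9 older probe sets, with means of -0.35 and -0.55. With the newer spikes set equal on both arrays all 5 beta-tubulin genes were at least 2-fold higher in BOUNTIFUL, with log2 ratios from 1.13 to 2.27, as were 8.52% of all probe sets. With the older spikes set equal the range was 1.32 to 2.45, and 12.6% of all probe sets were at least 2-fold higher. The median of all probe sets moved to 0.21 and 0.36 under these scalings. On the deposited scale and under the 5 other alternatives, TUB1 and TUB7 alone among the beta-tubulin genes were at least 2-fold higher. Over all probe sets that share was 4.36% with median centring, 4.19% with quantile normalization and 4.41% with loess. It was 10% with no pseudocount and 2.1% with a larger one of 24.8 units. The ratios of 3' to 5' control probe sets of actin, GAPDH and ubiquitin are a measure of RNA quality. Each was 1.03 to 1.12 times as high in BOUNTIFUL as in Ws-0. The highest were those of an actin control, 3.41 in BOUNTIFUL and 3.15 in Ws-0. The lowest were those of a GAPDH control, 0.94 in BOUNTIFUL and 0.91 in Ws-0. The part of RNA quality in the tubulin values was not tested.

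**Figure D3:**
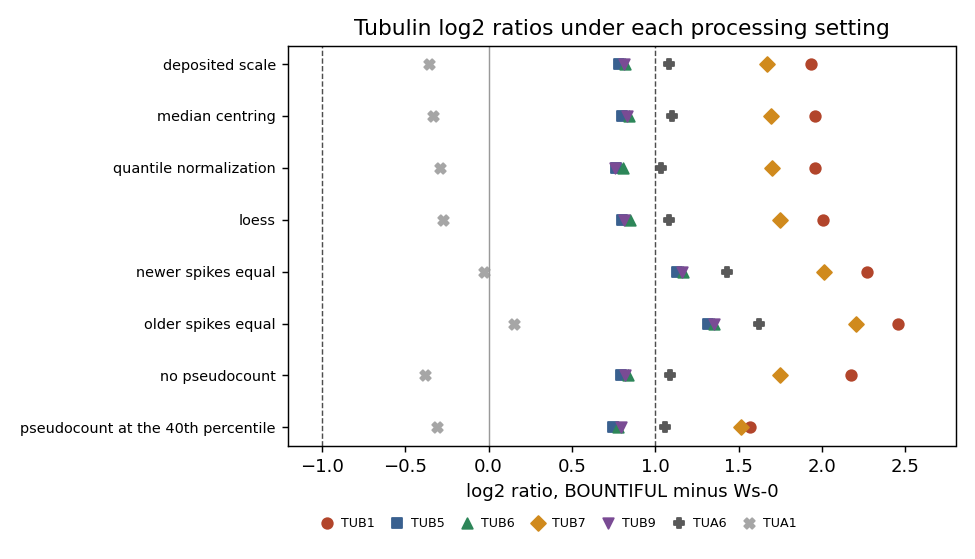
Log2 ratio, BOUNTIFUL minus Ws-0, of the 5 beta-tubulin genes and of TUA6 and TUA1 on the deposited scale and under 7 alternative settings (rows), with the 2-fold limits dashed. All beta-tubulin points lie right of 0 in each row, TUB5, TUB6 and TUB9 cross the 2-fold limit in the rows with spikes set equal, and TUA1 changes side, to 0.16, with the older spikes set equal.

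The alpha-tubulin partners went both ways on the deposited scale. TUA6 (AT4G14960) had 1461 units in BOUNTIFUL and 687 units in Ws-0, a log2 ratio of 1.08, which lay between the trio and the pair of beta-tubulin genes. TUA1 (AT1G64740), the alpha-tubulin gene known for expression in pollen, had 97.7 units in BOUNTIFUL and 127 units in Ws-0, a log2 ratio of -0.36 that became 0.16 with the older spikes set equal. The other 6 entries of the list, alpha-tubulin and gamma-tubulin genes, had no probe set named here.

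Genes that fold tubulin or act on microtubules were mostly without a named probe set. Of 101 entries in the 5 microtubule lists, alpha-tubulins included, 10 were measured. Of these, 6 had log2 ratios above 0 and 4 below, 1 (TUA6) was at least 2-fold higher and none at least 2-fold lower, with a median of 0.02. With the newer spikes set equal 8 were above 0 and 2 reached the upper 2-fold limit, and with the older spikes 9 and 3. The share above 0 over all probe sets was 47.4% on the deposited scale, 69.9% with newer spikes and 79.2% with older ones. The upper 2-fold limit was reached by 4.17%, 8.52% and 12.6% of all probe sets in the same order. The list counts thus rose along with those of the whole array. SPR1 (SPIRAL1, AT2G03680), a small protein that binds the growing ends of cortical microtubules, had 925 units in BOUNTIFUL and 568 units in Ws-0, a log2 ratio of 0.70. WDL3 (AT3G23090), of a family of microtubule-bundling proteins, had 25.8 units in BOUNTIFUL and 13.3 units in Ws-0, and the Ws-0 signal was in the range of the Bacillus subtilis controls. TON1B, which is needed for the preprophase band, had a log2 ratio of 0.32, with 44.6 units in BOUNTIFUL and 34.3 units in Ws-0.

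The microtubule-associated protein gene MAP65-6 (AT2G01910) was lower in BOUNTIFUL, at 121 units against 183 units in Ws-0, a log2 ratio of -0.56. KINESIN-13A, a motor protein gene, had a log2 ratio of -0.20, which turned positive under both spike scalings. KINESIN-12B was in the range of the controls on both arrays, with a log2 ratio of 0.03. The tubulin-folding cofactor genes PFI and POR had log2 ratios of 0.01 and -0.04, and that of POR turned positive under both spike scalings.

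Related processes were read through few genes. COB (COBRA), which is needed for oriented cellulose deposition, had 658 units in BOUNTIFUL and 461 units in Ws-0, a log2 ratio of 0.51, and was the only measured one of 12 entries of cellulose synthesis. The cell division list held 3 measured genes of 28, the Aurora kinases, which act in mitosis. All 3 had log2 ratios above 0, against 47.4% of all probe sets. AUR2 had 37.7 units in BOUNTIFUL and 13.0 units in Ws-0, and its Ws-0 value was within the controls' range. Its log2 ratio of 1.13 became 0.73 with the larger pseudocount of 24.8 units. AUR1 had a log2 ratio of 0.43 and AUR3 of 0.14. In the actin list, 2 of 29 entries were measured. ACT11 had a log2 ratio of 0.74. Its Ws-0 signal of 20.19 units was under the highest control signal of the BOUNTIFUL array but above that of the Ws-0 array. ACT12, in the range of the controls on both arrays, had a log2 ratio of -0.43.

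**Figure D4:**
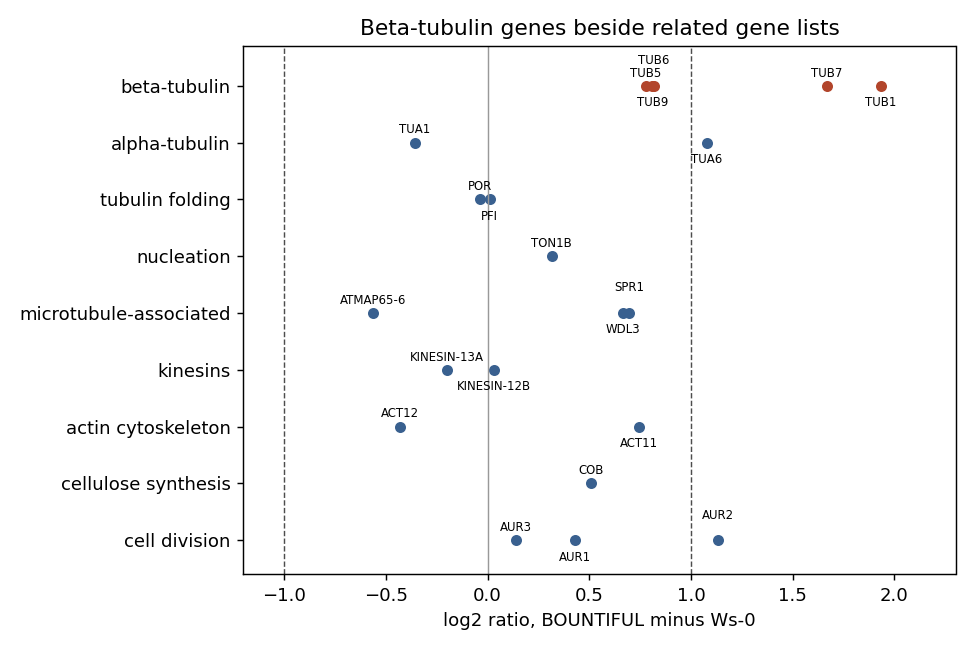
Log2 ratio, BOUNTIFUL minus Ws-0, of the 5 beta-tubulin genes (red, top row) and of each measured gene of 8 related lists (blue), 1 point per gene from 1 array per group, with the 2-fold limits dashed. All beta-tubulin points lie at 0.78 or higher, while on this deposited scale the points of microtubule lists lie on both sides of 0, from -0.56 (MAP65-6) to 1.08 (TUA6).

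Markers of the sampled tissue and of other tissues were set beside the tubulin values. Of 16 leaf entries, 2 were measured and both were bright. RCA (Rubisco activase) had 3587 units in BOUNTIFUL and 4492 units in Ws-0, a log2 ratio of -0.32 that became 0.03 and 0.22 with the newer and the older spikes set equal. The photosystem I gene PSAE-1 had 3700 units in BOUNTIFUL and 2219 units in Ws-0. Its log2 ratio was 0.74, and it became 1.09 and 1.28 with the newer and the older spikes set equal. Of 15 root entries, 3 were measured. The root hair expansin gene EXPA7 had 17.5 units in BOUNTIFUL and 21.7 units in Ws-0, both under the highest control signal of the BOUNTIFUL array. The Ws-0 signal was above the highest control signal of the Ws-0 array. The log2 ratio of EXPA7 was -0.22, which turned positive under both spike scalings. EXPA18, also a root hair expansin gene, had 26.1 units in BOUNTIFUL and 25.0 units in Ws-0, a log2 ratio of 0.05. PYK10, a beta-glucosidase gene known from roots, had 56.5 units in BOUNTIFUL and 13.6 units in Ws-0. Its Ws-0 signal was no brighter than the controls, and its log2 ratio of 1.59 therefore depends on the pseudocount. PYK10 and TUB1 were both higher in BOUNTIFUL, while EXPA7 and EXPA18 had log2 ratios of -0.22 and 0.05. Any link between the PYK10 and TUB1 values was not tested.

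Of 8 pollen entries, 2 were measured. The pollen actin gene ACT12 had 2.63 units in BOUNTIFUL and 6.26 units in Ws-0, in the range of the controls. TUA1, in contrast, had 97.7 units in BOUNTIFUL and 127 units in Ws-0, above the controls on both arrays. The floral gene UFO, the only measured one of 7 entries, had 1.098 units in BOUNTIFUL and 2.36 units in Ws-0, in the range of the controls. Of 6 stomatal entries, 3 were measured. The stomatal lineage genes SPCH and MUTE were in that range too, while FMA had 54.1 units in BOUNTIFUL and 80.7 units in Ws-0. The trichome gene TRY, the only measured one of 6 entries, had 40.2 units in BOUNTIFUL and 41.1 units in Ws-0. None of the 9 vascular entries was measured.

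The 5 genes with a symbol whose pair of values lay nearest to each beta-tubulin gene in log2(signal + pseudocount), over 2 arrays only, were also listed. This closeness rests in part on the brightness of different probe sets, which is no measure of relative transcript level, so it is not ranked here. Each gene's own log2 ratio is given. Genes picked by closeness on both arrays have log2 ratios near that of the beta-tubulin gene through the choice itself. Their likeness is therefore no result about these genes. Near TUB1 these were DFR, a dihydroflavonol reductase gene of anthocyanin synthesis (log2 ratio 1.75), JAL34 (1.73), ATLP-1 (1.94), the beta-expansin gene EXPB3 (1.60) and the endoglucanase gene GH9B8 (1.79). Near TUB7 they were SWEET17, which encodes a fructose transporter, the tetraspanin gene TET7, BGLU16, the expansin-like gene EXLB1 and FLDH, with log2 ratios from 1.07 to 1.96. Near TUB9 were SPR1, CYTC-1, COR15B, PGY1 and LIL3:2, with log2 ratios from 0.31 to 0.84. Near TUB5 were HEMB1, the SPIRAL1-like gene SP1L3, MDH, Cpn60beta2 and HCT, from 0.52 to 0.92. Near TUB6 were SCPL34, the plastid gene rpoA, TAPX, bHLH115 and ALDH3F1, from 0.54 to 0.76.

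An activation tag can raise genes near it, and this one is labelled at the locus BOU. Its part in the tubulin values was not tested. The 2 nearest genes with a named probe set on each side of each beta-tubulin gene were examined by gene order. From 0 to 10 genes of the gene table lay between them and the beta-tubulin gene. Of these 20 neighbours, 12 had log2 ratios above 0 and 8 below, with a median of 0.18. Over all probe sets 47.4% were above 0. With the newer spikes set equal 17 neighbours and 69.9% of all probe sets were above 0, and with the older spikes 18 and 79.2%. At least 2-fold higher were 2 neighbours with the newer spikes set equal, against 8.52% of all probe sets. With the older spikes these were 6, against 12.6%, and with no pseudocount 3, against 10%. Of the last 3, AT1G20030 had 2.1 units in BOUNTIFUL and 0.81 units in Ws-0, in the range of the controls. On the deposited scale 1 was at least 2-fold higher in BOUNTIFUL, against 4.17% of all probe sets. None was at least 2-fold lower, against 3.51%. The higher one was AT2G29500, which stands before TUB7 with 7 genes of the gene table between. AT2G29500 had 121 units in BOUNTIFUL and 14.2 units in Ws-0, the second of which lay in the range of the controls. The other 3 neighbours of TUB7 had log2 ratios of 0.51 (AT2G29510), 0.48 (ENOC) and -0.49 (AT2G29590). The neighbours of TUB1 lay between -0.27 (AT1G75760) and 0.25 (sks18), and those of TUB6 between -0.27 (AT5G12270) and 0.07 (AT5G12260). Those of TUB5 ran from -0.36 (AT1G20070) to 0.54 (AT1G19970). Before TUB9 stood AT4G20880 at 0.59 and AT4G20860 at 0.90, the second of which was above TUB9 itself, and after it AT4G20930 at -0.23 and PyrD at 0.31.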

How the data were processed

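The values deposited were intensity signals on a linear scale, 1 per probe set, made with MAS5 per the submitters' processing notes, with no version given in the sources used here. After trimming 2% from either end, both arrays had a mean of 100.0, so the authors' values share a scale. No further scaling was applied. Of 22810 probe sets, 64 were controls. A platform annotation of 2016, updated through the gene table of TAIR10.1, gave 13513 Arabidopsis probe sets 1 gene, and 13436 matched the table. The pseudocount, 7.77 units, was the 20th percentile of all signals, and no filter was applied. Probe sets of 1 gene were averaged. The 5 probe sets carry no suffix for cross-hybridisation, and binding of transcripts of similar tubulin genes was not tested. Detection calls were not used. Of the tubulin-folding list, CCT1 and CCT2 matched genes of another function and were left out. Named were all members, measured list genes, the 5 nearest genes in signal and the 2 nearest neighbours on each side. Members and lists were chosen with earlier results of these data known. The calculation was tested on simulated data. Python 3.11.15, pandas 2.3.3, numpy 2.4.6 and statsmodels 0.14.6 were used.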

Additional observations from a re-analysis of the deposited data

How the results depend on the processing

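No paired analysis was possible because BOUNTIFUL and Ws-0 were each read on a single array, and neither could be left out. All 5 beta-tubulin genes stayed above 0 under the 7 alternatives, of which those for TUB6, TUB7, TUB9, the median and the alpha-tubulins were chosen after seeing the data. A value was taken as moved past 0.21, the median gap between probe sets of 1 gene. With the newer spikes set equal, which multiplies every BOUNTIFUL signal by 1 factor, the log2 ratio was 2.27 for TUB1, 1.13 for TUB5, 1.16 for TUB6, 2.01 for TUB7 and 1.16 for TUB9, with a median of 1.16. With the older spikes it was 2.45, 1.32, 1.35, 2.203 and 1.35 in the same order, with a median of 1.35. TUB1 had 2.17 with no pseudocount and 1.57 with one at the 40th percentile (24.8 units), and TUB1 exceeded TUB5 by 1.38 and 0.82 under these, since the pseudocount weighs most on low signals. At least 2-fold higher and lower were 948 and 799 probe sets on the deposited scale (54.3% higher), 1938 and 431 with the newer spikes (81.8%), 2868 and 314 with the older (90.1%), 2283 and 2142 with no pseudocount, 477 and 337 with the larger one, and 527 and 453 with a filter at the median mean signal (39.9 units), where fewer entered. Signals under about 21.9 units, the highest Bacillus subtilis control in BOUNTIFUL, cannot be safely told from background. In Ws-0 the highest such control had 16.7 units.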
